A study of Rattus norvegicus with 30 samples.

Results

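Primary rat hepatocytes were exposed for 24 h to beta-naphthoflavone (BNF), a synthetic flavonoid that activates the aryl hydrocarbon receptor (AhR), and the higher dose, 100 µM, was compared with the lower dose, 1 µM. The comparison used 10 arrays, 5 per dose, of the 30 in the series. The other 20 arrays were 5 vehicle arrays at 24 h (1% dimethyl sulfoxide, DMSO) and 5 arrays each of vehicle, 1 µM and 100 µM BNF at 48 h. The cells were bought frozen from male Sprague Dawley rats, of an age not given in the sources used here, plated on collagen under a Matrigel overlay and dosed on the third day of culture, with RNA taken 24 or 48 h later. Each array held biotin-labelled RNA of a separate well, and no label links a well to an animal. The p-values therefore rest on well-to-well spread alone, which may be technical. All wells were grown alike and the dosing solutions were made in DMSO. The labels give the DMSO percent for the vehicle wells only, so equal solvent at both doses is not shown by them. The wells were inspected under a microscope for dead cells, and the outcome is not given in the sources used here.

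The AhR rests in the cytosol, moves to the nucleus when it binds a ligand, pairs with ARNT there and binds xenobiotic response elements near genes of xenobiotic metabolism. In the liver its best known targets are Cyp1a1, Cyp1a2 and Cyp1b1, cytochromes P450 that oxidise aromatic compounds, together with the quinone reductase Nqo1 and the feedback genes Tiparp and Ahrr. Electrophiles and oxidants act through NRF2, encoded by Nfe2l2, which binds antioxidant response elements near genes of glutathione synthesis and export. Amino acid shortage and other stresses act through the transcription factor ATF4. Differentiated hepatocytes also carry the liver's amino acid, fatty acid, bile acid and urea metabolism and secrete most plasma proteins.

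Promoters of 5 genes are shown first because the AhR and NRF2 bind short DNA elements near their target genes. Each sequence is the 250 bases before the gene's start in RefSeq, rat assembly GRCr8, written 5′ to 3′ in the direction of the gene. Capitals mark matches on either strand to the core of the xenobiotic response element, GCGTG, in the first 3 sequences, and to the antioxidant response element TGACNNNGC in the last 2. Cyp1b1 and Tiparp had the largest dose differences of the AhR genes. Nqo1 had most of its response at 1 µM already. Gclm and Idh1 stand for glutathione synthesis and NADPH supply.
Cyp1b1, chr6:21094315-21094564, + strand: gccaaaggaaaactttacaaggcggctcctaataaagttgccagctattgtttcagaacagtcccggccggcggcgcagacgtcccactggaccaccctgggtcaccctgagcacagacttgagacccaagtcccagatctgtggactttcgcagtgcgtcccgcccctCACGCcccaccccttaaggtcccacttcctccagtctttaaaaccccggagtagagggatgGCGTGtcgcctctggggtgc
Tiparp, chr2:152063519-152063768, + strand: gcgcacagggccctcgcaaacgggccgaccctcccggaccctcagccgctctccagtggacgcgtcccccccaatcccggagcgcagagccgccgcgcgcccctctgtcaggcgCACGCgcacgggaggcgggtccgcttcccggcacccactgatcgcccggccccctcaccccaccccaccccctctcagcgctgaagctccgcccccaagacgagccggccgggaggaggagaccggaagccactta
Nqo1, chr19:52220268-52220517, - strand: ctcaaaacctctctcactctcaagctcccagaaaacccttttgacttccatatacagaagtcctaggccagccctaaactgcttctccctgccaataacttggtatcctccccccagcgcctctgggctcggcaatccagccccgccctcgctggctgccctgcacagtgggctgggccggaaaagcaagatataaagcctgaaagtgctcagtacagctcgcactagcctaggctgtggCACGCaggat
Gclm, chr2:213031885-213032134, + strand: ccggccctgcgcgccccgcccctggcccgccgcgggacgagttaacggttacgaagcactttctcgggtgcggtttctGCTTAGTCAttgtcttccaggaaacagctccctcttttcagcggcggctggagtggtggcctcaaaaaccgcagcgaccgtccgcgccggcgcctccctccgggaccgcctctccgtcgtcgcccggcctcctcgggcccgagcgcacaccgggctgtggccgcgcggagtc
Idh1, chr9:74049475-74049724, - strand: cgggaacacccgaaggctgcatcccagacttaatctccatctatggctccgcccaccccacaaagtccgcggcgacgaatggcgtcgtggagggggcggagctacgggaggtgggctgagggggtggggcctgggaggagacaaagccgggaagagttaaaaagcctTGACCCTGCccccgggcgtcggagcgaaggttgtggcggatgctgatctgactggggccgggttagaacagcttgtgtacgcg
The xenobiotic element core was found in 25.9% of all 33469 RefSeq rat promoters of this length. Of the 9 AhR genes that had a promoter entry, 5 held it: 2 of the 4 called between the doses and 3 of the 5 not called. The antioxidant element was found in 10.1% of all promoters and in 3 of the 19 NRF2 target genes that had an entry, namely Gclm, Txnrd1 and Ephx1. It was also found in 2 of 7 genes of NADPH supply, Me1 and Idh1. These matches describe the letters in this window only.

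In all, 1097 of 14217 genes (7.72%) differed between 100 and 1 µM at 24 h at a limma adjusted p under 0.05, which is what "called" means here. Of these, 447 (3.14% of all genes) were higher at 100 µM and 650 (4.57%) lower. Most differences were small: the median size among called genes was 0.35 on the log2 scale, 224 reached 1.5-fold, and 72 reached 2-fold, 19 higher and 53 lower. The 5 arrays of each dose did not overlap for 1078 genes (7.58%). For scale, 612 genes (4.30%) were called between 1 µM and vehicle at 24 h and 3000 (21.1%) between 100 µM and vehicle. These comparisons share arrays with the dose comparison, and their values are therefore given side by side only. Without any single array the dose comparison called between 781 genes (without 1 µM replicate 1) and 1112 genes (without 1 µM replicate 4). When each array was centred on its median, 962 genes were called, of which 487 were higher and 475 lower.

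**Figure D1:**
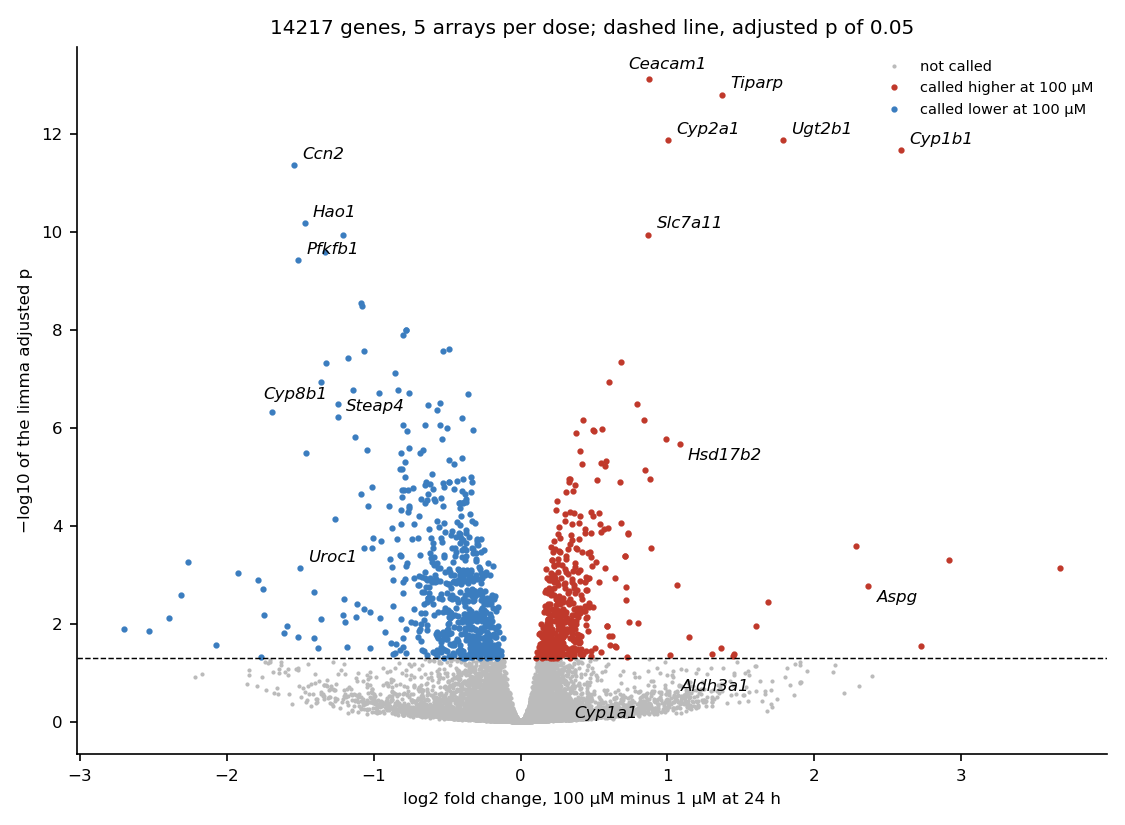
Log2 fold change of 100 over 1 µM at 24 h (x axis) against the negative log10 of the limma adjusted p (y axis) for 14217 genes, each a point. The 447 genes called higher are red, the 650 called lower are blue, and Cyp1a1 and Aldh3a1 lie under the dashed line at an adjusted p of 0.05.

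Technical measures of the 10 arrays overlapped between the doses. Median signal was 381.3 to 424.9 at 1 µM and 365.5 to 427.8 at 100 µM, and Gapdh read at its 3′ end exceeded its 5′ end by 0.11 to 0.16 and 0.085 to 0.14 on the log2 scale. For beta-actin the same excess was far larger, 1.375 to 1.462 at 1 µM and 1.366 to 1.561 at 100 µM. The labelled cell type was checked against hepatocyte markers: the summed signal of 11 measured markers was 491040 to 549070 at 1 µM and 446090 to 574300 at 100 µM. Albumin (log2 difference 0.01) and transthyretin were not called, and 2 hepatocyte markers fell, Tat (-0.44) and Cps1 (-0.40). Of the markers of other liver cells, none of 13 for Kupffer cells, 11 for endothelial cells, 8 for cholangiocytes and 9 for lymphocytes was called. For stellate cells 2 of 15 fell, Lrat and Rgs5. Over all genes 7.72% were called, so a lack of calls in lists this short says little about these cells. Median signals at 1 µM were 213 for endothelial, 231 for cholangiocyte and 306 for stellate cell markers, against 881 over all genes. For Kupffer cell markers the median was 1041. The summed ranges of every list overlapped between the doses, for example 28164 to 30652 against 27352 to 31118 for Kupffer cells and 7117 to 8700 against 6748 to 7754 for stellate cells. Cholangiocyte markers differed widely in level. The keratin Krt19 had low mean signals of 29.5 at 1 µM and 27.0 at 100 µM, and Epcam high ones of 10650 and 10430. Lymphocyte markers were dim, with a median of 101 at 1 µM and 88.1 at 100 µM.

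The AhR genes did not share a single dose pattern. Of 11 measured, 4 rose from 1 to 100 µM (Cyp1b1, Tiparp, Cyp1a2 and Nfe2l2) and none fell, with a median difference of 0.42, against -0.004 over all genes. The share called was 36.4%, against 7.72% of all genes. At 1 µM, 4 of the 11 were called against vehicle.

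Cyp1b1, which oxidises oestrogens and polycyclic hydrocarbons, stayed near its vehicle level at 1 µM and rose at 100 µM. Its signal was 352, 513, 542, 609 and 689.6 in the vehicle wells, 536, 606, 623, 631 and 956 at 1 µM, and 3411, 3736, 4081, 4254 and 4397 at 100 µM. The 1 µM wells overlapped the vehicle wells, and every 100 µM well lay above them all, although 1 of the 1 µM wells, at 956, stood well above its group. The difference between the doses was 2.59 on the log2 scale (SE 0.17, 6.03-fold, limma adjusted p = 2.146e-12), beside 0.31 (limma adjusted p = 0.3409) for 1 µM against vehicle.

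Tiparp, an AhR-induced ADP-ribosyltransferase that restrains the receptor, had the same order. Its signal was 4265, 4591, 4663, 4701 and 4928 at 1 µM and 11248, 11685, 11841, 12574 and 12589.6 at 100 µM. The doses were far apart, with a rise of 1.37 (SE 0.08, 2.59-fold, limma adjusted p = 1.557e-13), beside 0.25 for 1 µM against vehicle (limma adjusted p = 0.05806).

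Cyp1a2, the liver's main enzyme for caffeine and aromatic amines, rose at both steps. Signal was 9837 to 13066 in vehicle wells, 16782, 17823, 18068, 19703 and 20016 at 1 µM, and 21772, 24615, 27182, 28055 and 28789.8 at 100 µM. The 3 groups did not overlap. Its rise was 0.49 from 1 to 100 µM (SE 0.11, 1.41-fold, limma adjusted p = 0.004408), after 0.64 from vehicle to 1 µM.

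Cyp1a1 had most of its rise at 1 µM. The vehicle wells read 7573 to 15657, the 1 µM wells 39415, 42694, 44084, 46765 and 47544, and the 100 µM wells 51978, 53819, 55858, 61105 and 74156. All 100 µM wells were above all 1 µM wells, but the spread was wide, and the dose difference of 0.42 (95% interval 0.01 to 0.83) was not called (limma adjusted p = 0.2554), against 1.94 for 1 µM over vehicle. With only these 10 arrays in the fit the same difference was called (limma adjusted p = 0.00949).

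Nqo1, which reduces quinones, had the same order with a smaller step. Its wells read 48013, 49238, 50865, 51072 and 52172 at 1 µM and 51034, 53329, 54428, 59587 and 66147 at 100 µM. The groups overlapped, and the difference of 0.17 (95% interval 0.04 to 0.31) was not called (limma adjusted p = 0.1258), after 0.70 from vehicle to 1 µM. At 48 h, on other arrays, the dose difference was called for both Cyp1a1 (1.19) and Nqo1 (0.32). The difference between the times was not called for either (limma adjusted p = 0.433 and 0.793).

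Of the rest, Nfe2l2, the gene of NRF2 and also an AhR target, rose by 0.34 (SE 0.05, limma adjusted p = 1.074e-05). Aldh3a1, an aldehyde dehydrogenase, read 170 to 295 at 1 µM and 336 to 674 at 100 µM, a difference of 1.04 (95% interval 0.28 to 1.79) that was not called (limma adjusted p = 0.0895) and was called with 50 added to the signals (limma adjusted p = 0.0301) or with the 10 arrays alone (0.0291). The receptor Ahr (0.01), its repressor Ahrr (-0.10), Cyp2s1 (-0.23) and the partner Arnt (1.14, 95% interval 0.06 to 2.22) were not called. Arnt read 44.1 to 75.6 in 4 wells at 1 µM and 302 in the other.

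**Figure D2:**
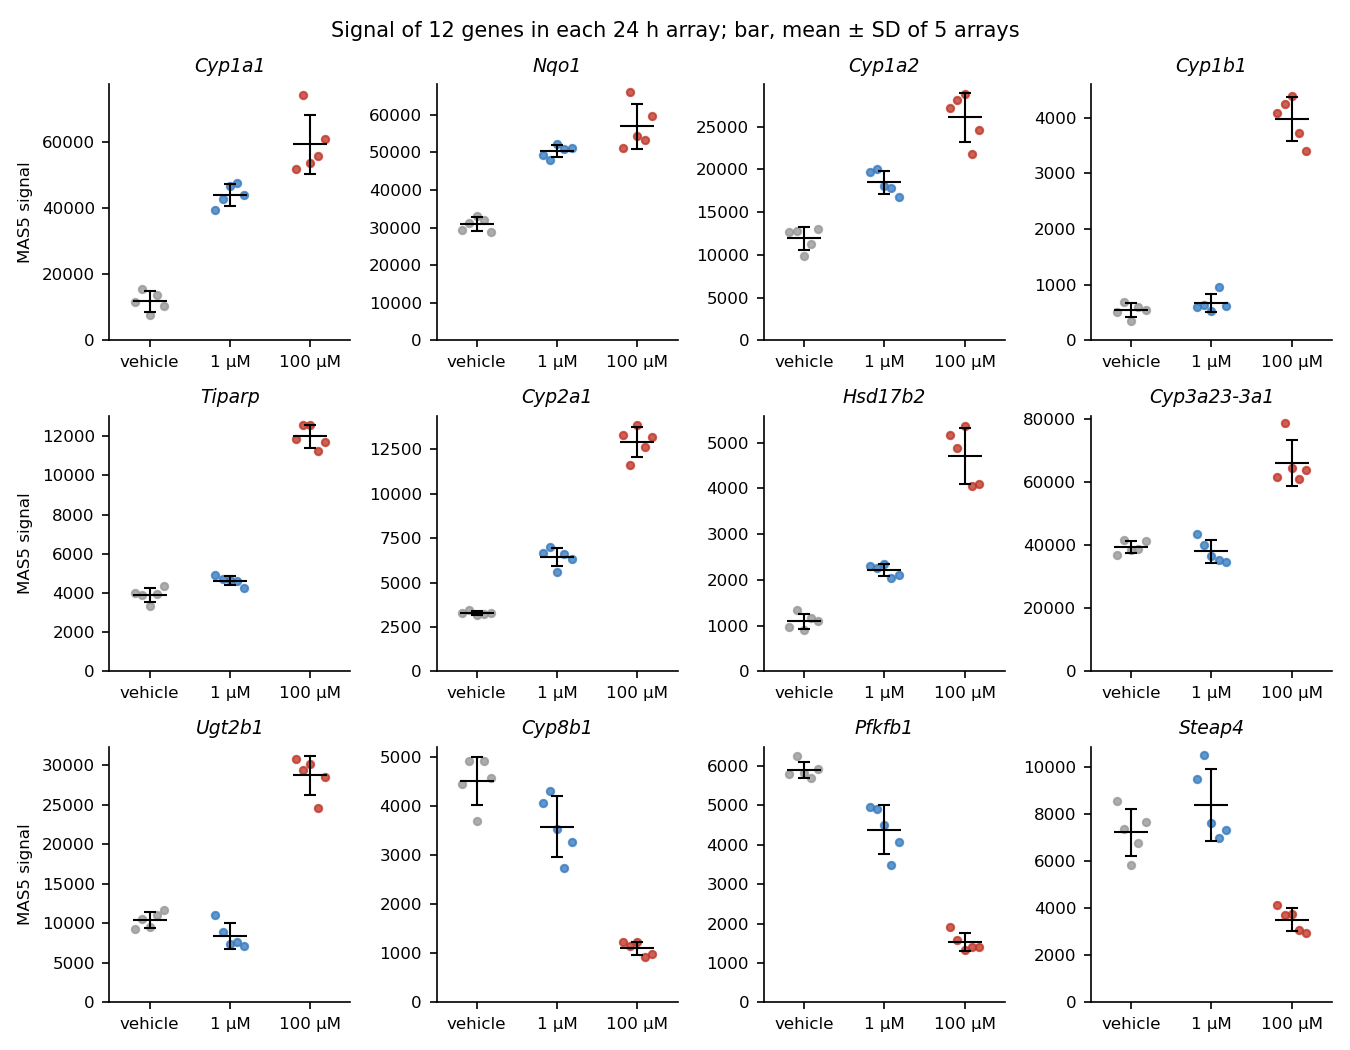
MAS5 signal (y axis, linear, from 0) of 12 genes in each well given vehicle, 1 µM or 100 µM BNF for 24 h (x axis); points are arrays, and bars are the mean ± SD of 5 arrays. Cyp1a1 and Nqo1 stepped up mainly at 1 µM, Cyp1b1, Tiparp and Ugt2b1 at 100 µM, and Cyp8b1, Pfkfb1 and Steap4 were lowest at 100 µM.

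Several genes of steroid and drug metabolism outside the AhR list were among the highest. Cyp2a1, a P450 that hydroxylates testosterone, rose by a similar amount at each step. Its 1 µM wells read 5624, 6309.9, 6622, 6673 and 6984 and its 100 µM wells 11636, 12657, 13197, 13307 and 13873, against 3288 ± 106 in vehicle (SD, n = 5). The dose difference was 1.01 (SE 0.06, 2.01-fold, limma adjusted p = 1.312e-12), beside 0.97 for 1 µM against vehicle. Hsd17b2, which inactivates oestradiol and testosterone, read 2048 to 2345 at 1 µM and 4051 to 5373 at 100 µM, with steps of 1.02 and then 1.08 (SE 0.14, limma adjusted p = 2.091e-06).

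Ugt2b1, a glucuronosyltransferase, moved at the higher dose. Its signal was 9264 to 11660.5 in vehicle wells, 7094, 7435, 7581, 8943 and 11012 at 1 µM, and 24623, 28529, 29422, 30176 and 30772 at 100 µM. The 1 µM wells overlapped the vehicle wells (log2 difference -0.32, not called), and the rise from 1 to 100 µM was 1.79 (SE 0.11, 3.45-fold, limma adjusted p = 1.312e-12). UDP-glucuronosyltransferases are close relatives, and this probe set may read more than 1 of them.

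Cyp3a23-3a1, a target of the pregnane X receptor (PXR), rose by 0.79 (SE 0.09, limma adjusted p = 3.264e-07), from 38006 ± 3632 to 65906 ± 7359 (SD, n = 5). At 1 µM it was -0.05 from vehicle and not called. Among 11 measured targets of PXR and the related receptor CAR, it was 1 of 2 that rose, with Por, the electron donor of P450s. The 3 that fell were Aldh1a1, Gadd45b and Ces2c. In this list 45.5% were called, against 7.72% of all genes. Por was higher at 100 than at 1 µM by 0.40 but had fallen by 0.48 from vehicle to 1 µM, so that 100 µM stood at -0.07 from vehicle.

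In the conjugation list, 3 of 17 genes rose and 2 fell. Ugt2b1, Ugt2b35 and Ugdh, which makes the glucuronic acid donor (0.30), rose, and the sulfotransferases Sult1b1 (-0.78) and Sult1a1 (-0.62) fell. Without 1 µM replicate 4 or 100 µM replicate 1, 4 fell. The share called was 29.4% in this list and 20% among the glutathione S-transferases, against 7.72% of all genes. Of 15 glutathione S-transferases, Gsta4, which clears lipid aldehydes, rose (0.44), and Gstm7 (-0.68) and Gstz1 (-0.36) fell. Of 21 constitutive and sex-dependent P450s, 3 rose (Cyp2a1, Cyp2f4 and Cyp2c6v1) and 5 fell, among them Cyp4f4 (-1.09) and the ethanol-inducible Cyp2e1 (-0.52). In steroid and retinoid metabolism, Hsd17b2 rose and 8 of 23 fell, with Hsd3b5 (-0.84), Dhrs3 (-0.78) and Rdh16 (-0.50) among them; 5 fell when arrays were centred on their medians.

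Many NRF2 targets rose. Of 22 measured, 13 rose, none fell, all 22 differences were above 0, and the median was 0.21. As a share, 59.1% were called, against 7.72% of all genes. At 1 µM, 3 of the 22 were called against vehicle, all higher.

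Slc7a11, which imports cystine for glutathione synthesis, had the largest rise among those called. Its wells read 5091, 5563, 5875, 6012 and 6246 at 1 µM and 10040.5, 10238, 10483, 10830.5 and 10956 at 100 µM. The doses did not overlap (0.87, SE 0.07, 1.83-fold, limma adjusted p = 1.127e-10), and 1 µM differed from vehicle by 0.14, not called. Gclc, the catalytic subunit of the rate-limiting enzyme of glutathione synthesis, read 6619 to 7588 at 1 µM and 9279 to 10788 at 100 µM (0.50, SE 0.06, limma adjusted p = 1.167e-06), and its modifier subunit Gclm, whose promoter is printed above, rose by 0.37 (SE 0.07). Txnrd1, which reduces thioredoxin, rose by 0.58 (SE 0.08), and Hmox1, haem oxygenase, by 0.27. Akr1b8 (0.21) was not called (limma adjusted p = 0.07915).

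Of 8 genes of NADPH supply, 4 rose and none fell: malic enzyme Me1 (0.34), Pgd of the pentose phosphate pathway (0.27), isocitrate dehydrogenase Idh1 (0.20) and transketolase Tkt (0.16). That is 50% called, against 7.72% of all genes. The second probe set of Idh1 gave 0.19 with a limma adjusted p of 0.868. Tkt lost its call without 1 µM replicate 1 or 2, or 100 µM replicate 2, 3 or 5 (limma adjusted p up to 0.0602).

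**Figure D3:**
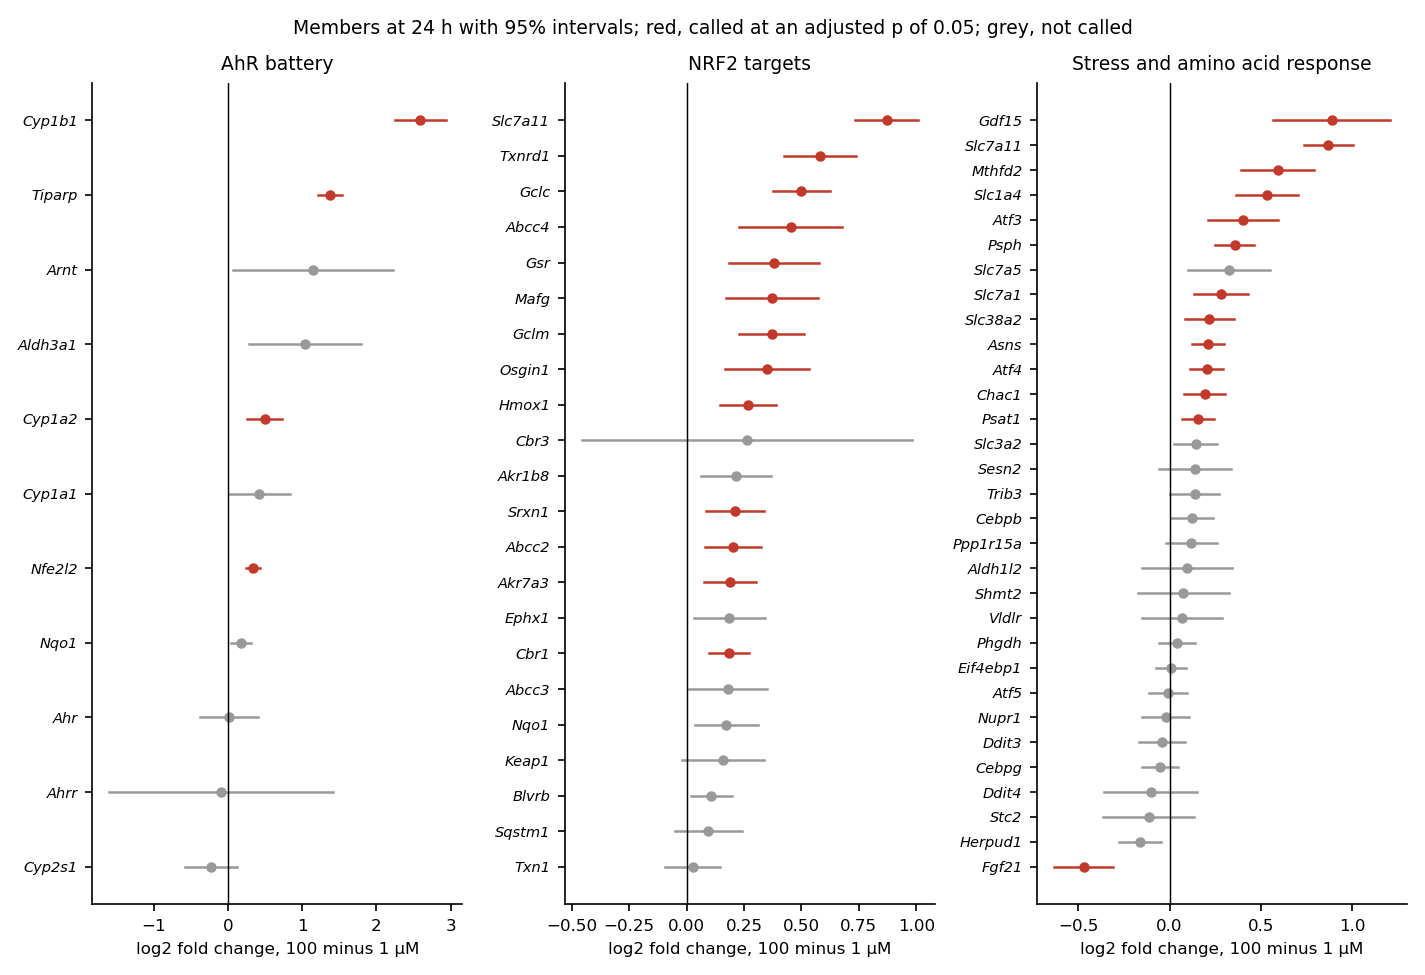
Log2 fold change of 100 over 1 µM at 24 h (x axis) with its 95% interval for each measured member of the AhR battery, the NRF2 targets and the stress and amino acid response list. Red members were called at a limma adjusted p under 0.05 and grey ones were not; all 22 NRF2 targets lie above 0, while the AhR genes range from -0.23 to 2.59.

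Genes of the ATF4-linked stress and amino acid response rose in part. Of 31 measured, 12 rose and 1 fell, Fgf21, and the median was 0.14. Without 1 µM replicate 1 or 2, 2 were called lower. Slc7a11, counted above with the NRF2 targets, is also 1 of the 12 that rose. Gdf15, a secreted stress hormone, read 1842, 2279, 2344, 2353 and 2359 at 1 µM and 3169, 4211, 4305, 4535 and 4556 at 100 µM. The doses did not overlap, and each had a lone low well, 1842 and 3169. Its rise was 0.89 (SE 0.16, limma adjusted p = 2.749e-04). Mthfd2 of mitochondrial folate metabolism rose by 0.59, the amino acid transporter Slc1a4 by 0.53 and Psph of serine synthesis by 0.36. Among 19 tRNA synthetases, enzymes that charge tRNAs, 6 rose and none fell, with Iars1 (0.26) and Yars1 (0.27) among them, the first not called by its second probe set (limma adjusted p = 0.486). That count was 3 without 1 µM replicate 1 or 100 µM replicate 5, and 1 without 1 µM replicate 2. The shares called were 41.9% for the stress list and 31.6% for the tRNA synthetases, against 7.72% of all genes.

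Of 30 proteasome subunits, 6 rose and none fell, and 29 had differences above 0, with a median of 0.11; Psma5 and Psmd7 each rose by 0.18. Without 100 µM replicate 5 the count was 2. Of 22 chaperones and other genes of the endoplasmic reticulum stress response, Manf rose (0.19), and Edem1, which directs misfolded proteins to degradation, fell (-0.63). Ero1b also fell, but lost its call in 6 of 10 fits that each left out a single array, and 2 of the 22 were called higher without 100 µM replicate 1. Of 21 heat shock genes, Hspb8 (0.28) and Chordc1 rose and Hspa1a fell (-0.39). Chordc1 was not called without 1 µM replicate 2 (0.15, limma adjusted p = 0.0516), and 2 of the 21 were called lower without 1 µM replicate 3. Zfand2a, an arsenite- and heat-inducible zinc finger gene outside these lists, rose by 0.84 (SE 0.10, limma adjusted p = 6.849e-07). In the p53 list, Plk2 rose (0.40) and Sesn1 (-1.12) and Cdkn1a (-0.32) fell, of 18 measured. Cdkn1a was not called without 1 µM replicate 1 or 100 µM replicate 1 or 5. Without 1 µM replicate 4, 3 of the 18 were called higher. The shares called in either direction were 20% for the proteasome, 13.6% for endoplasmic reticulum stress, 14.3% for heat shock and 16.7% for p53. Over all genes the share was 7.72%.

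The broadest group of falls was in amino acid catabolism, where 25 of 49 measured genes fell, 1 rose, and the median was -0.36, against 4.57% of all genes lower and a median of -0.004. Over the alternative fits 17 to 25 of them fell, and 0 rose when genes below the median signal were left out. Of 15 genes of the urea cycle and nitrogen handling, 7 fell and Glul rose, with the same median, -0.36. Glul was no longer called without 1 µM replicate 1, 2 or 5 or 100 µM replicate 3, 4 or 5, when none of the 15 was called higher. In bulk RNA, a smaller share of hepatocytes and less of these RNAs per hepatocyte cannot be told apart. Among the 11 hepatocyte markers above, Tat and Cps1 were called lower, no other was called, albumin and transthyretin included, and 9 differences were below 0. Tat is also 1 of the 25 falls in amino acid catabolism and Cps1 1 of the 7 in the urea list. These 2 calls are therefore not separate from the list counts. The cause of the falls in these lists was not tested.

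Hao1, the peroxisomal glycolate oxidase, fell strongly. Its wells read 1638, 1859, 1873, 1911 and 2014 at 1 µM and 523, 648, 716, 718 and 771 at 100 µM, and 2494 ± 271 in vehicle (SD, n = 5). The doses did not overlap (-1.47, SE 0.11, 2.77-fold lower, limma adjusted p = 6.501e-11). Hao2 (-1.32) and Hoga1 (-1.21) fell too, and so did Uroc1 of histidine breakdown (-1.50), Aass of lysine breakdown (-1.24) and Upb1 of pyrimidine breakdown (-0.96). Cdo1, which oxidises cysteine, fell by 0.78 on the log2 scale. Prodh, proline dehydrogenase, fell by 1.26, but its second probe set gave 0.60 (limma adjusted p = 0.692).

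In the urea cycle, Arg1, which releases urea, read 34912, 37229.8, 40689.5, 44002 and 46032 at 1 µM and 23387, 26109.8, 26940.4, 27330.1 and 27897 at 100 µM (-0.62, SE 0.11, limma adjusted p = 3.552e-04). The groups did not overlap. The ornithine carrier Slc25a15 fell by 0.69 and Glud1, which frees ammonia from glutamate, by 0.36. The gene that rose in amino acid catabolism was Aspg, an asparaginase. It read 91.3, 131, 357, 376 and 516 at 1 µM and 1058, 1170.3, 1227, 1358 and 1474 at 100 µM, a rise of 2.37 with a wide error (SE 0.50, 5.17-fold, limma adjusted p = 0.001657).

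Fatty acid oxidation and other targets of PPARA, the fasting-sensing nuclear receptor, fell in 16 of 38 cases and rose in none, with a median of -0.21. The share called was 42.1%, against 7.72% of all genes. Over the alternative fits 12 to 17 fell. Fgf21, also on the stress and amino acid list, is 1 of the 16. Angptl4, an inhibitor of lipoprotein lipase, read 7141 to 9092 at 1 µM and 3358 to 4758 at 100 µM (-1.09, SE 0.10, limma adjusted p = 2.762e-09). Cyp4a1, a fatty acid omega-hydroxylase, read 2709 to 3613 and 1268 to 1653 (-1.08, SE 0.10). Neither gene's doses overlapped. Cyp4a3 (-0.73) and Pdk4, which holds back glucose oxidation (-0.65), fell too.

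In fatty acid and triglyceride synthesis 10 of 33 genes fell, among them the transcription factor Srebf1 (-0.77) and Acly, which makes cytosolic acetyl-CoA (-0.39), and 1 rose, the elongase Elovl6 (0.88, SE 0.12, limma adjusted p = 1.092e-05). Without 100 µM replicate 2, 2 were called higher. Of 20 genes of cholesterol synthesis, 5 fell, with Dhcr7 first (-0.42), and 3 fell when arrays were centred on their medians or without 1 µM replicate 1 or 4 or 100 µM replicate 1. As shares, 33.3% of the fatty acid and triglyceride list and 25% of the cholesterol list were called, against 7.72% of all genes.

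In bile acid metabolism, 7 of 25 genes fell and 3 rose, with a median of -0.28. That is 40% called, against 7.72% of all genes. Cyp8b1, which sets the share of cholic acid, had the largest fall of the genes named by size, whose groups do not overlap and whose higher mean is above the median gene. Its wells read 3696 to 4914 in vehicle, 2739.7, 3268, 3529, 4062 and 4299 at 1 µM, and 926, 984, 1144, 1224 and 1226 at 100 µM. The 1 µM wells overlapped the vehicle wells and the 100 µM wells lay far below (-1.69, SE 0.20, 3.23-fold lower, limma adjusted p = 4.66e-07). Slc27a2, a bile acid and fatty acid ligase (-0.55), Cyp27a1 (-0.37) and Nr1h4, the bile acid receptor FXR (-0.46), fell, and Baat, which conjugates bile acids to amino acids, rose (0.44). The 3 that rose were 1 without 1 µM replicate 1 or 2.

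In glucose metabolism, 9 of 24 genes fell and 1 rose, Pck2. The share called was 41.7%, against 7.72% of all genes. Pfkfb1, the liver enzyme that sets fructose 2,6-bisphosphate, read 3495, 4077, 4500.1, 4906 and 4961 at 1 µM and 1339, 1414, 1414, 1591 and 1915 at 100 µM. The groups did not overlap (-1.52, SE 0.12, 2.86-fold lower, limma adjusted p = 3.702e-10). Fbp1 of gluconeogenesis (-0.66) and the glucose-6-phosphate carrier Slc37a4 (-0.81) fell, and each had also fallen from vehicle to 1 µM (-0.69 and -0.55). Pyruvate kinase Pklr fell by 0.68, but not by its second probe set (-0.14, limma adjusted p = 0.94).

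**Figure D4:**
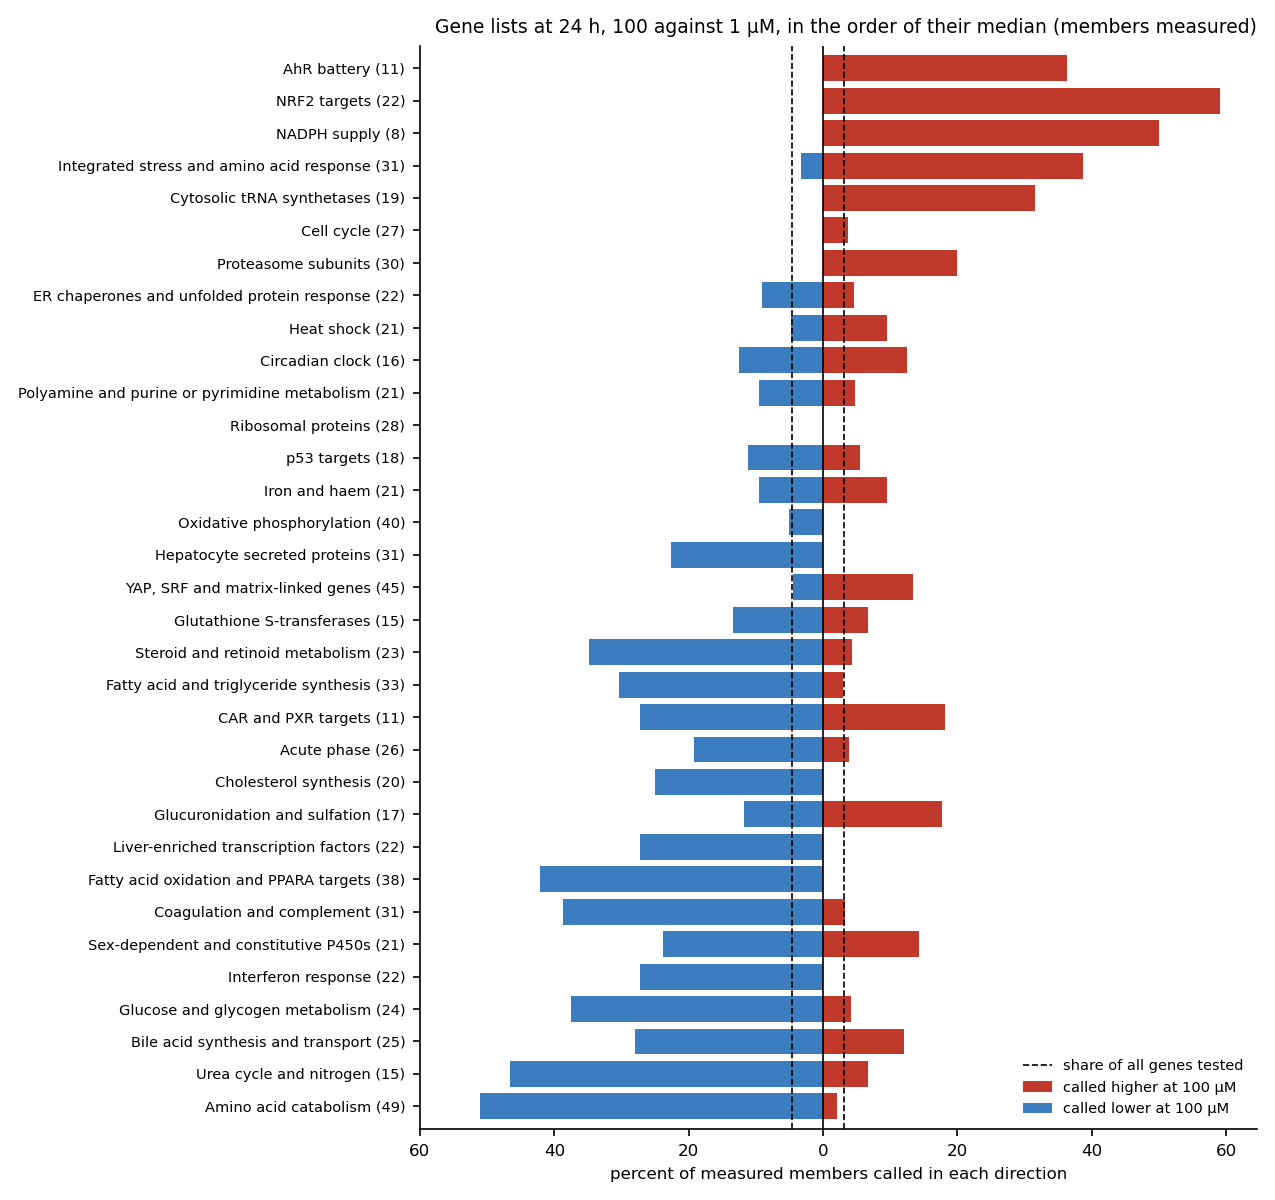
Percent of the measured members of 33 gene lists called higher (right, red) or lower (left, blue) at 100 than at 1 µM at 24 h, in the order of the list medians, with the number measured in parentheses. Dashed lines mark the share of all genes called, 3.14% higher and 4.57% lower; NRF2 targets have the longest bar to the right and amino acid catabolism the longest to the left.

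Plasma proteins fell in part. Of 31 genes of coagulation and complement, 12 fell and 1 rose (none without 1 µM replicate 2 or 100 µM replicate 5), Pros1, and of 31 other secreted proteins 7 fell and none rose. Examples are the plasmin inhibitor Serpinf2 (-0.81), the complement regulator C4bpa (-0.60), Serpina3n (-0.76) and the triglyceride regulator Apoa5 (-0.59). The 7 secreted proteins were 4 without 1 µM replicate 1 or 100 µM replicate 4, and 1 was called higher without 1 µM replicate 3 or 100 µM replicate 4. In the acute phase list, 5 of 26 fell and 1 rose, Il1r1, which was not called without 1 µM replicate 1 or 2 or 100 µM replicate 1. Lbp, which binds bacterial lipopolysaccharide, read 6077, 7034, 7112, 7343 and 7656 at 1 µM and 4002, 4645, 4902, 4989 and 5269 at 100 µM. The doses did not overlap (-0.57, SE 0.06, limma adjusted p = 4.292e-07). Ceruloplasmin, Cp (-0.63), and the transcription factor Cebpd (-0.54) fell too, the last with a limma adjusted p of 0.0652 when its probe sets were averaged. The shares called were 41.9% for coagulation and complement, 22.6% for other secreted proteins and 23.1% for the acute phase. Over all genes the share was 7.72%. Over the alternative fits, 8 to 15 coagulation and complement genes fell.

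Steap4, a metalloreductase, fell by 1.25 on the log2 scale between the doses (SE 0.15, limma adjusted p = 5.989e-07). It read 6994 to 10488 at 1 µM and 2952 to 4137 at 100 µM, and 1 µM stood 0.21 above vehicle, not called. Of 22 interferon-response genes, 6 fell and none rose. As a share, 27.3% were called, against 7.72% of all genes. Isg15, a ubiquitin-like antiviral protein, read 3591, 3605, 4488, 5475 and 6602 at 1 µM and 2008, 2023, 2536, 2961 and 4044 at 100 µM. The groups overlapped, with 1 of the 100 µM wells above 2 of the 1 µM wells (-0.82, SE 0.15, limma adjusted p = 3.952e-04). Usp18 (-0.64) and Stat2 (-0.40) fell too.

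Of 22 liver transcription factors, 6 fell and none rose, including PXR's gene Nr1i2 (-0.39) and Nr1h4. That count was 3 without 1 µM replicate 1, 2 or 3 or 100 µM replicate 2. In the main fit 27.3% of the list was called, against 7.72% of all genes. The gene of PXR thus fell while its target Cyp3a23-3a1 rose. Esrrg, an orphan nuclear receptor, fell by 1.01, but its second probe set gave -0.01 (limma adjusted p = 0.994).

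Of 45 genes linked to YAP, SRF and matrix, 6 rose and 2 fell, Ccn2 and Vim. Without 100 µM replicate 1, 4 fell. The share called was 17.8%, against 7.72% of all genes, and the 2 falls were near the 4.57% of all genes called lower. Ccn2, a matrix-associated growth factor and YAP target, fell at both steps. Its wells read 8807 to 10483 in vehicle, 5073, 5519, 5709, 5984 and 6579 at 1 µM, and 1824, 1827, 1956, 1995 and 2314 at 100 µM. The 3 groups did not overlap. The fall from 1 to 100 µM was 1.54 on the log2 scale (SE 0.10, limma adjusted p = 4.288e-12), beside -0.74 for 1 µM against vehicle. Fosl1, a subunit of AP-1, rose (0.84), and Cd24, a surface glycoprotein, read 59.9 to 213 at 1 µM and 344 to 495 at 100 µM (2.28, SE 0.40, limma adjusted p = 2.507e-04).

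The smallest limma adjusted p of all genes was that of Ceacam1, a liver cell adhesion protein that takes part in insulin clearance. It read 4128, 4224, 4239, 4512 and 4676 at 1 µM and 7629, 7781, 7833, 8222 and 8423 at 100 µM. The wells were tight within each dose (0.87, SE 0.05, 1.83-fold, limma adjusted p = 7.526e-14). Other large differences were in Tcim (-1.33), Nxpe4 (-1.17), Rgs16, a regulator of G protein signalling (-1.14), Zap70, a kinase best known from T cells (-1.20), and Klrb1a, a lectin receptor best known from natural killer cells (0.80). None of 9 lymphocyte markers was called, with summed signals of 1008 to 1218 at 1 µM and 755 to 1361 at 100 µM. Their median signals were low, 101 at 1 µM and 88.1 at 100 µM, against 881 and 862 over all genes. The lack of calls therefore says little about these cells. Zdhhc18 (0.99) and Synrg (-1.36) were called by the probe set used here, and the second gave 0.12 and 0.01, with limma adjusted p of 0.863 and 0.99.

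The remaining lists had at most 2 calls in each direction. As shares, 5% of oxidative phosphorylation and 3.7% of cell cycle genes were called, against 7.72% of all genes. The shares were higher for polyamine and nucleotide metabolism (14.3%), iron and haem (19.0%) and the clock (25%). None of 28 ribosomal protein genes was called at a limma adjusted p under 0.05, 2 of 40 genes of oxidative phosphorylation fell (Ndufa8 and Sdhd), and none when arrays were centred on their medians. Sdhd was not called without 1 µM replicate 1, 2 or 3 or 100 µM replicate 1 or 4. Of 27 cell cycle genes, Myc rose (0.20), but it lost its call in 8 of 10 fits that each left out a single array. Of 16 clock genes, Cry2 and Per2 rose and Per1 and Bhlhe40 fell. Of these, Per2 lost its call in 4, Per1 in 6 and Bhlhe40 in 6 of the 10 fits, and Cry2 when its probe sets were averaged (limma adjusted p = 0.159). Of 21 genes of iron and haem, Slc48a1 and Hmox1 rose and Slc39a14 and Hjv fell. Hjv was not called when arrays were centred on their medians (limma adjusted p = 0.0777), Slc39a14 not by its second probe set (0.475), and Slc48a1 not with the 10 arrays alone (0.063). Of 21 genes of polyamine and nucleotide metabolism, Umps rose and Pnp and urate oxidase, Uox (-0.89), fell. The count called higher was 3 without 100 µM replicate 2 and 2 without 1 µM replicate 5. Pnp was not called by its second probe set (limma adjusted p = 0.706), nor when its probe sets were averaged.

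At 48 h the same doses were compared on other arrays, and 1984 genes (14.0%) were called, 934 higher (6.57%) and 1050 lower (7.39%). Of the 1097 genes called at 24 h, 778 were also called at 48 h, 70.9% of the 24 h list and 39.2% of the 48 h list, and 774 of these had the same direction. The difference between the times was itself called for 50 genes (0.352%), of which 42 had the larger dose difference at 48 h and 8 at 24 h.

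Crp, C-reactive protein, had a large difference between the times. At 24 h it read 3968 to 5553 at 1 µM and 4917 to 6819 at 100 µM (0.25, not called). At 48 h it read 5199, 5634, 5972, 6151 and 6393 at 1 µM and 1895, 1907, 2324, 2336 and 3148 at 100 µM (-1.36). The difference between the times was 1.61 (SE 0.18, limma adjusted p = 2.322e-06). Cd36, a fatty acid transporter, read 711 to 1072 and 507 to 805 at 24 h (-0.49), and 2490.1 to 2778 and 615 to 803 at 48 h (-1.97), so that the 1 µM wells were higher at 48 than at 24 h and the 100 µM wells similar. Ugt2b, in the same family as Ugt2b1, was -0.09 at 24 h (not called) and -1.26 at 48 h; by its second probe set that difference was not called (limma adjusted p = 0.491).

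A few genes turned direction between the times. Por was higher at 100 µM at 24 h (0.40) and lower at 48 h (-0.32), with a difference of 0.72 (limma adjusted p = 8.874e-04). Cd9, a tetraspanin, read 7418 to 8262 at 1 µM and 10578 to 12584 at 100 µM at 24 h (0.57), and 4889.5 to 6873 and 4196 to 4589.7 at 48 h (-0.41). The NRF2 targets Gclc (0.50 and 1.01) and Akr1b8 (0.21 and 1.08) had larger dose differences at 48 h, with differences between the times of -0.51 and -0.86 (limma adjusted p = 0.001372 and 1.089e-05). Cyp4a1 (-1.08 and -1.82) and Serpina3n (-0.76 and -1.60) fell further at 48 h, and Ceacam1 rose more at 24 h (0.87 and 0.52). Of the AhR genes, Cyp1b1 (2.59 and 1.77), Tiparp (1.37 and 1.25) and Cyp1a2 (0.49 and 0.67) had called dose differences at both times and no called difference between them (limma adjusted p = 0.1882, 0.8794 and 0.8831).

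**Figure D5:**
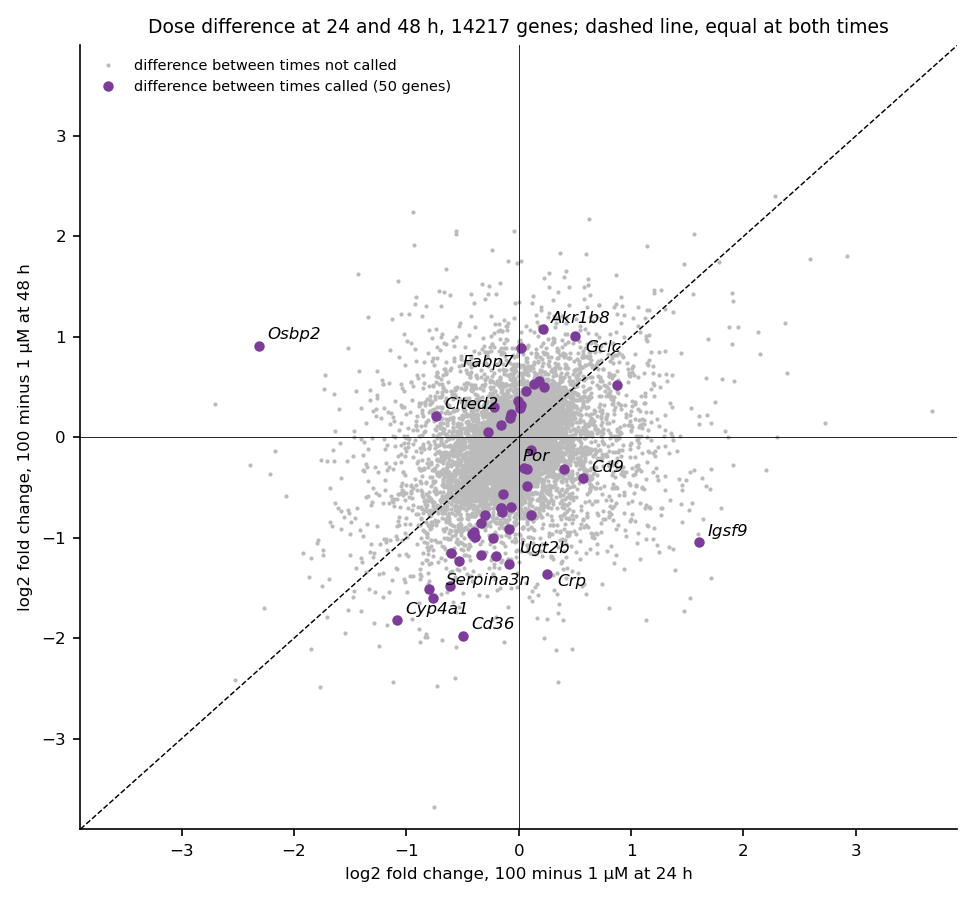
Log2 fold change of 100 over 1 µM at 24 h (x axis) against that at 48 h (y axis) for 14217 genes; the dashed line marks equal values, and the 50 genes whose difference between the times was called are purple. Most of these 50, 42, lie farther from 0 on the 48 h axis, Crp, Cd36 and Ugt2b among them.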

How the data were processed

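RNA from 30 hepatocyte wells, 5 per dose and time, was measured on Affymetrix rat expression arrays. The deposited values are probe set intensities (signal), for which the submitters' processing notes name MAS5 without a version, and the values show that each array was scaled to a common trimmed mean. Of 31099 probe sets, 57 were controls, 20826 had 1 gene symbol, 436 several and 9780 none, and 20758 of the named ones matched the RefSeq gene table (GRCr8). Each of 14217 genes was represented by its probe set of highest mean over all arrays, of which 4525 had more than 1.

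Log2 of the deposited signal was fitted in limma 3.58.1 (R 4.3.3) with all 6 groups and trended eBayes (24 residual degrees of freedom). The dose difference at 24 h is 100 µM minus 1 µM, and p-values were adjusted by Benjamini and Hochberg over all genes, with calls at 0.05. The fit was tested on simulated data. Arrays give no read depth, and their number limits the precision: the median SD of a gene was 0.19 at 1 µM and 0.20 at 100 µM on the log2 scale. No arrays held identical values.

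Genes named were the 15 highest and 15 lowest called differences with groups that do not overlap and a higher mean above the median gene, all AhR genes, up to 4 called members of each list with the smallest adjusted p, and the 5 highest and 5 lowest differences between the times. Other genes were named after their values were seen. The members and lists were chosen with earlier results of these data known. Alternatives were another scaling, a constant of 50, leaving out dim genes, no trend, averaged probe sets, the compared groups alone, the second probe set and leaving out each array.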

Additional observations from a re-analysis of the deposited data

Results flagged for a closer look

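Of 296 groups of 5 arrays compared for the named genes, 16 had a single array far from the other 4 by Dixon's criterion, which chance meets in about 1 in 20 groups. At 1 µM these were Aass in replicate 2 (3238, others 2248 to 2448), Arnt in replicate 5 (302, others 44.1 to 75.6), Cd24 in replicate 4 (213, others 59.9 to 81.8) and Cyp1b1 in replicate 4 (956, others 536 to 631). Also at 1 µM, Gdf15 (1842, others 2279 to 2359) and Glud1 (24106, others 25164 to 25445) were low in replicate 1, Nr1h4 was low in replicate 2 (1727, others 2272 to 2370), and Rdh16 was high in replicate 5 (5901, others 5308 to 5453). At 100 µM, replicate 2 was high for Cyp3a23-3a1 (78801, others 60950 to 64408) and low for Gdf15 (3169, others 4211 to 4556) and Glud1 (18282, others 19837 to 19913). Replicate 5 was high for Apoa5 (4197, others 3855 to 3947) and Psmd11 (24336, others 21858 to 22483), replicate 1 was high for C8a (2836, others 2247 to 2393), and replicate 4 was high for Pdk4 (8388, others 6955 to 7167) and low for Stat2 (2372, others 2886 to 3060).

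The log2 dose difference itself differed between 24 and 48 h for 19 named genes by limma's test of that difference. It was higher at 24 h, as 24 h minus 48 h, for Igsf9 (2.65), Crp (1.61), Cd36 (1.48), Ugt2b (1.17), Cd9 (0.98), Sult1a1 (0.86), Serpina3n (0.84), Cyp4a1 (0.74), Por (0.72), Apoc2 (0.60), C4bpa (0.55), Itih4 (0.47) and Ceacam1 (0.36). It was lower at 24 h for Osbp2 (-3.22), Cited2 (-0.95), Fabp7 (-0.86), Akr1b8 (-0.86), Rsad2 (-0.52) and Gclc (-0.51). For Sult1a1, Serpina3n, Cyp4a1, Cd36, Apoc2, C4bpa and Itih4 both dose differences were below 0 and the one at 48 h was the larger in size. The time differences of Igsf9 and Osbp2 lost their call under several alternatives.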

How the results depend on the processing

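The 24 h dose comparison called 902 to 1191 genes under the 7 other ways of processing, and 781 (without 1 µM replicate 1) to 1112 (without 1 µM replicate 4) without a single array; 762 of the 781 were among the 1097. Of 148 named genes, 107 had no change between called and not called under any alternative run, and those called among them kept their direction. Some of the 107 were not called in any fit, and of these Ahr (-0.17 to 0.16), Ahrr (-0.29 to 0.11) and Fabp7 (-0.05 to 0.07) changed sign. Centring arrays on their medians moved the share called higher from 40.7% to 50.6% at 24 h, from 47.1% to 71.7% at 48 h and from 44.3% to 32.6% for 1 µM against vehicle, where the fit of the compared groups alone gave 31.1%. The calls for 1 µM against vehicle were 406 (without 1 µM replicate 3) to 689 (without vehicle replicate 3), against 612. At 48 h leaving out an array gave 1611 to 1919 calls, for 100 µM against vehicle 2626 to 2931, and for the difference between the times 41 to 57. The second probe set left called or not called unchanged for 25 of 44 genes. Among called differences it turned the direction of Prodh (0.60), Synrg (0.01) and the time difference of Osbp2 (0.18). The cause of these changes was not tested. No paired analysis was possible because the labels number no replicates: the numbers used here follow the order of deposition, only name the arrays and pair no wells. Probe sets with low signal, Aspg, Cd24, Arnt and Aldh3a1 among them, had wide errors.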
